A study of Homo sapiens with 9 samples.

Results

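The genes examined were 10 B-lymphocyte genes that are known for breaks, translocations or mutation in lymphoma, namely BACH2, PAX5, FOXP1, IKZF1, BCL2, BCL6, CIITA, IRF8, LPP and MYC, out of 19103 autosomal protein-coding genes. They were chosen by name, and all γH2AX peaks that overlapped a gene body of GENCODE release 44 on GRCh38, extended by 10 kb to each side, were counted in each of 8 peak lists. The windows held 276 of the 213253 autosomal peaks. The study compared human B-lymphocytes of an established lymphoblastoid line, named GM07027 in the paper and GM09027A in the labels, that were left untreated or were treated for 24 h with 0.1 μg/mL aphidicolin (APH), 2 mM hydroxyurea (HU) or 200 μM methyl methanesulfonate (MMS), with 2 replicates each. All cells were of that single line with no engineered allele, and a peak list holds no expression values, so the cell type could not be checked against markers.

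γH2AX is the phosphorylated form of histone H2AX that spreads over chromatin around stalled or broken replication forks and double-strand breaks. APH inhibits replicative DNA polymerases, HU depletes deoxynucleotides by inhibiting ribonucleotide reductase, and MMS methylates DNA bases. In B cells, activation-induced deaminase (AID) starts somatic hypermutation at the immunoglobulin loci and also acts at other transcribed genes, where it favours cytosines in short motifs such as AGCT. Several of these genes are recurrent translocation partners of the immunoglobulin loci.

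Merging peaks that touched across the 8 lists gave 157 sites in the 10 windows, of which 96 were in 1 list and 28 were in 3 or more. A site was called recurrent when both replicates of at least 2 conditions held it, and 6 sites met this, of which 3 lay in the IRF8 window and 1 each in those of PAX5, CIITA and MYC. Peaks of a site need not overlap each other directly, and the untreated pairs at the CIITA site and the IRF8 site before the gene, the APH pair at PAX5 and the MMS pairs at MYC and at the IRF8 site 6.18 kb after the start were joined through wider HU peaks. The reference sequence of 300 bases at the centre of the recurrent site held by the most lists is shown for PAX5, IRF8 and CIITA. The stretch is narrower than the site. HU was the only condition with peaks of both replicates over the PAX5 and CIITA stretches, and APH and HU were the only ones over the IRF8 stretch. The CIITA site was held by the untreated and HU lists alone, and another CIITA site, in 5 lists, was not recurrent. Capitals mark AGCT, and the strand is the plus strand of GRCh38.
PAX5, chr9:37041470-37041769, overlapped by peaks of 5 lists: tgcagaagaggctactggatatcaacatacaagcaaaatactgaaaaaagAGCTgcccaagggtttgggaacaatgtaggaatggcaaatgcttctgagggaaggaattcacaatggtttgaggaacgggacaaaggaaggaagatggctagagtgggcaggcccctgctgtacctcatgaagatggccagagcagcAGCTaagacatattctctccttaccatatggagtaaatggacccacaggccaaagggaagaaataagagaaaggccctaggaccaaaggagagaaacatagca
IRF8, chr16:85895157-85895456, overlapped by peaks of 6 lists: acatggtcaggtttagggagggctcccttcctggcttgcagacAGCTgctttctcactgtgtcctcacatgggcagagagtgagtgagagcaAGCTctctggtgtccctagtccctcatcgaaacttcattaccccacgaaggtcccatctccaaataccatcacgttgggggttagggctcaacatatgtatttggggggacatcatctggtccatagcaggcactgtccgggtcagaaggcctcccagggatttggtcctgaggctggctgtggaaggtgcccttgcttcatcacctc
CIITA, chr16:10921188-10921487, overlapped by peaks of 3 lists: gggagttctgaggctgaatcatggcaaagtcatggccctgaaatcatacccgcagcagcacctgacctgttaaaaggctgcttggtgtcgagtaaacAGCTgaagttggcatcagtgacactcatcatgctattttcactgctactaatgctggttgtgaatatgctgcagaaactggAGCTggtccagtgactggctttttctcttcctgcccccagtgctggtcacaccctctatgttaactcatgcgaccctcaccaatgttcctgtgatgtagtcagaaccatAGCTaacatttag
The PAX5 stretch lay 7.35 kb before the start of the gene and the IRF8 stretch 3.81 kb before it, and neither overlapped an annotated gene. The CIITA stretch lay 55.1 kb after the start, in an intron, within a site that reached exon 17. AGCT, which reads the same on both strands, occurred 2, 2 and 3 times in these stretches. It was present in the central 300 bases of 76.1% to 79.4% of all peaks of a list and in 74.1% of 35116 RefSeq promoters of that length, so most peaks anywhere hold it. In the 10 windows it was present in 73.3% and 76.3% of the HU peaks, 86.7% and 87.0% of the 15 and 23 APH peaks, 80.6% and 73.9% of the 31 and 23 MMS peaks, and 83.3% and 62.5% of the 6 and 8 untreated peaks, and no difference from the whole lists was tested.

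The lists differed in size, with 4779 and 4327 autosomal peaks without treatment, 17658 and 14009 after APH, 79891 and 69922 after HU, and 12202 and 10465 after MMS. The number expected in a window was therefore its share of the 2756 Mb of assembled autosomal sequence multiplied by the number of autosomal peaks in the list, and each value below is the ratio of observed to expected peaks. Over the 10 windows together, 6 and 8 peaks were observed without treatment, 15 and 23 after APH, 90 and 80 after HU, and 31 and 23 after MMS. The ratios were 1.35 and 1.98 without treatment, 0.912 and 1.76 after APH, 1.21 and 1.23 after HU, and 2.73 and 2.36 after MMS. The same ratio over all autosomal protein-coding genes lay between 1.49 and 1.75 in the 8 lists. Both replicates of the 10 genes exceeded this range only after MMS, and both lay below it after HU, and no test was made of the group. These summed ratios weight genes by length, and FOXP1, LPP and BACH2 have the longest windows. The median ratio of the 10 genes after HU was 2.03 and 1.58, above the 1.44 and 1.32 over all genes. In every other list the median over all genes was 0 and that of the 10 genes was above it. Neither comparison was matched for length. Depth is unknown because a peak list holds no read numbers.

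**Figure D1:**
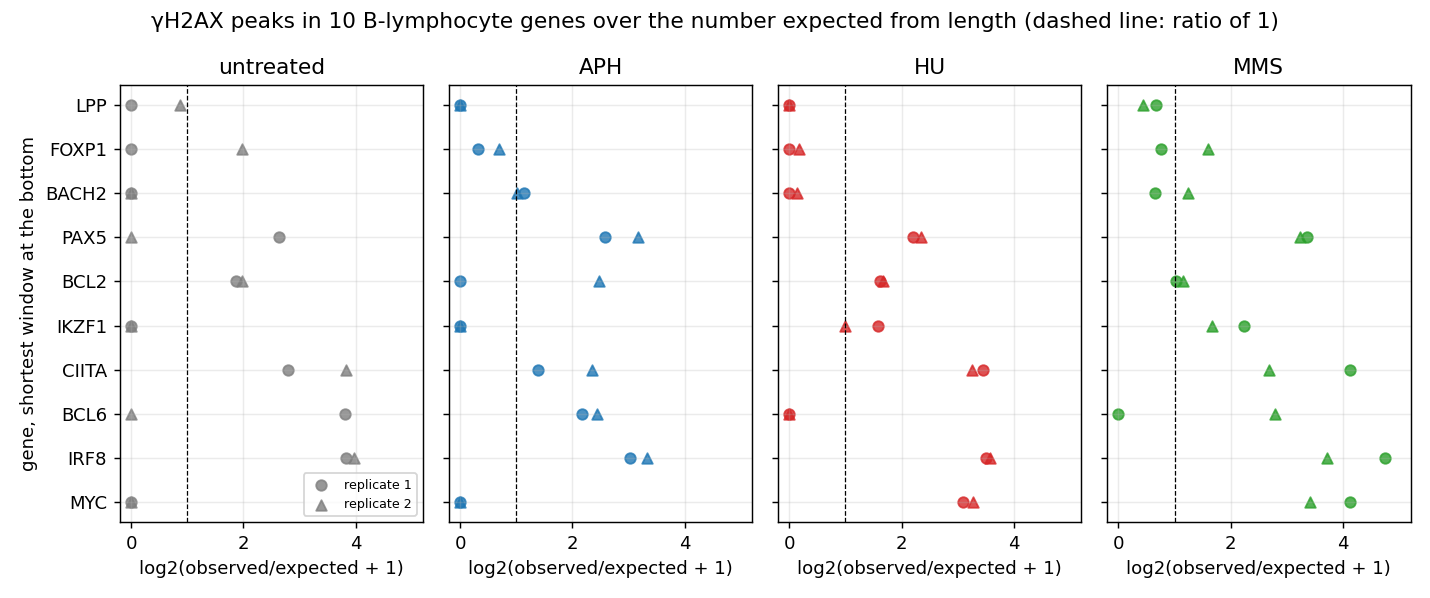
Observed over expected γH2AX peaks, as log2(ratio + 1), in the window of each gene (rows) for 4 conditions (panels), with a circle for replicate 1, a triangle for replicate 2 and a dashed line where observed equals expected. After HU, IRF8, CIITA, MYC, PAX5 and BCL2 lay to the right of the line in both replicates and FOXP1, LPP, BACH2 and BCL6 to its left.

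The group value hid a split among the members after HU. A gene was counted as dense when both replicates had a ratio of 2 or more with 2 or more peaks. Among windows under 100 kb, MYC, CIITA and IRF8 were dense after HU, 3 of 4 members against 43.4% of all genes of that size. Among windows of 100 kb or more, PAX5 and BCL2 were dense, 2 of 6 members against 20.2% of genes. A ratio of 0.5 or less in both replicates was found for BCL6 among the shorter windows, 1 of 4 against 28.3%, and for FOXP1, LPP and BACH2 among the longer ones, 3 of 6 against 45.8%. For so few genes these HU counts were close to the background shares and do not set the members apart. After APH, IRF8 was dense among the shorter windows (1 of 4 against 4.98%) and PAX5 among the longer ones (1 of 6 against 11.5%). After MMS, CIITA and IRF8 were dense among the shorter windows (2 of 4 against 2.97%) and PAX5 among the longer ones (1 of 6 against 10.8%). Without treatment no member was dense, against 0.787% of the shorter and 1.79% of the longer windows. The untreated lists were short, so the limit of 2 peaks was hard to reach in them. IRF8 had untreated ratios of 13.3 and 14.6 from 1 and 1 peaks, where 0.0754 and 0.0683 were expected. CIITA had 5.96 and 13.2 from 1 and 2 peaks, and BCL2 2.66 and 2.94 from 1 and 1. No other member had a peak in both untreated lists. The absence of dense members without treatment thus does not show a low density.

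PAX5, a transcription factor that commits cells to the B lineage, lies on chromosome 9 at 36833269 to 37034268. Its window held 2 and 0 peaks without treatment, 7 and 9 after APH, 23 and 23 after HU, and 9 and 7 after MMS. The 6 treated lists, which were also larger, all held more PAX5 peaks than either untreated list. The ratio was 6.48 ± 2.17 (SD, n = 2) with APH, 3.85 ± 0.362 after HU and 8.77 ± 0.606 after MMS. The sequence within 1 Mb on each side held 4.39 times the autosomal HU expectation, and against these surroundings the HU ratio was 0.873, below 1. There were 2289 genes with a window 0.5 to 2 times as long and at least 5 HU peaks expected from their surroundings. Of these, 60.3% had a lower ratio to their surroundings, and their median was 0.622. The MMS ratio against surroundings was 3.08. Of 3399 genes with a window 0.5 to 2 times as long, 99.2% had a lower MMS ratio than PAX5. The untreated ratios of 5.22 and 0 rested on those 2 peaks.

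IRF8, an interferon regulatory factor that acts in B and myeloid cells, lies on chromosome 16 at 85899116 to 85922606. It held 1 and 1 peaks without treatment, 2 and 2 after APH, 13 and 12 after HU, and 5 and 2 after MMS. The HU ratio of 10.6 ± 0.399 was the highest of the 10 genes, and 98.4% of 13141 genes of like length were lower. Against the 1 Mb on each side the HU ratio was 4.32. All 4 APH peaks lay outside the gene body, so that the APH ratio was 0 with no extension, and none of them reached a fold enrichment of 3. The MMS ratio of 19.0 ± 9.80 spread widely between replicates, with 26.0 and 12.1. All 13 IRF8 peaks of HU replicate 1 and all 12 of replicate 2 overlapped a peak of the other replicate.

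CIITA, the coactivator that switches on MHC class II genes, lies on chromosome 16 at 10866222 to 10943021. It held 1 and 2 peaks without treatment, 1 and 2 after APH, 28 and 21 after HU, and 7 and 2 after MMS. Its HU ratio of 9.27 ± 1.01 exceeded that of 98.2% of 7694 genes of like length. The sequence within 1 Mb on each side held 4.47 times the autosomal HU expectation, and against these surroundings the HU ratio was 2.08. Of 4533 genes of like length with at least 5 peaks expected from their surroundings, 83.2% had a lower ratio to them. In HU, 19 of the 28 peaks and 19 of the 21 peaks were found in both replicates, whereas none of its 7 and 2 MMS peaks were.

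MYC, a transcription factor that drives growth, lies on chromosome 8 at 127735434 to 127742951. Its window had no peak in the untreated and APH lists, 6 and 6 peaks after HU, and 2 and 1 after MMS. With only 0.316 peaks expected over both APH lists, the count of 0 allowed a ratio of up to 9.49. The HU ratio was 8.06 ± 0.758, above 87.6% of 10753 genes of like length. The sequence within 1 Mb on each side held 3.09 times the autosomal HU expectation, and against these surroundings the HU ratio was 2.60. The HU and MMS lists thus had peaks in this window, while nothing can be said of APH from lists of this size. The gene body makes up 7.52 kb of the 27.5 kb window. No HU peak had its centre in the body, although a wide peak of each HU replicate reached exon 3. Some HU peaks overlapped the window only at its edge, so the HU ratio describes the flanks more than the gene itself.

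BCL2, an inhibitor of apoptosis, lies on chromosome 18 at 63123346 to 63320128. It held 1 and 1 peaks without treatment, 0 and 5 after APH, 13 and 12 after HU, and 1 and 1 after MMS. The APH replicates did not agree, and the HU ratio of 2.13 ± 0.0800 just passed the limit used here. The sequence within 1 Mb on each side of BCL2 held 1.71 times the autosomal HU expectation, and against these surroundings the HU ratio was 1.24. IKZF1, the Ikaros zinc finger protein of lymphoid development, lies on chromosome 7 at 50304068 to 50405101 and had no peak in the untreated and APH lists, 7 and 3 after HU, and 2 and 1 after MMS. Its HU ratios of 2.00 and 0.977 were ordinary for its length, with 56.2% of 6383 genes of like length below its mean.

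FOXP1, a forkhead transcription factor, lies on chromosome 3 at 70954693 to 71583978. It held 0 and 3 peaks without treatment, 1 and 2 after APH, 0 and 2 after HU, and 2 and 5 after MMS. After HU 18.8 and 16.5 peaks were expected, so both ratios (0 and 0.121) were far below 1 although HU gave the largest lists. A lower mean HU ratio than that of FOXP1 was found in 53.5% of 738 genes of like length. The sequence within 1 Mb on each side was dense in HU peaks, at 2.74 times the autosomal expectation, and would have given 49.3 and 47.4 peaks in the window. Of 496 genes of like length with at least 5 peaks expected from their surroundings, 29.4% had an even lower ratio to them, and their median was 0.153, so sparse bodies in dense surroundings were common among genes of this length.

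LPP, a LIM domain protein of focal adhesions, lies on chromosome 3 at 188153284 to 188890671. It held 0 and 1 peaks without treatment, none after APH or HU, and 2 and 1 after MMS. After HU 21.95 and 19.21 peaks were expected, and the count of 0 over both lists allowed a ratio of up to 0.0729. A mean HU ratio of 0 was also found in 45.7% of 586 genes of like length. The surroundings of LPP were as empty, at 0.0736 times the expectation. BCL6, a repressor of the germinal centre programme, lies 0.408 Mb away at 187721377 to 187745725. It held 1 and 0 peaks without treatment, 1 and 1 after APH, none after HU, and 0 and 1 after MMS. Only 2.41 peaks were expected over both HU lists, so its count of 0 allowed a ratio of up to 1.24 and does not show a low density.

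BACH2, a repressor that delays plasma cell differentiation, lies on chromosome 6 at 89926528 to 90296843. It held no peak without treatment, 3 and 2 after APH, 0 and 1 after HU, and 1 and 2 after MMS. The expected numbers after HU were 11.3 and 9.90. The ratio was 1.104 ± 0.135 after APH, 0.0505 ± 0.0714 after HU and 0.964 ± 0.545 after MMS. The single HU peak lay 380.0 kb from the start, beyond the end of the gene body. A lower mean HU ratio than that of BACH2 was found in 36.4% of 1598 genes of like length. No peak of FOXP1, LPP, BACH2 or BCL6 in any list was found in the other replicate of its condition. BACH2, BCL2, BCL6 and LPP lie in bands that the study lists as common fragile sites (FRA6G, FRA18B and, for BCL6 and LPP, FRA3C), and their mean HU ratios ran from 0 to 2.13.

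**Figure D2:**
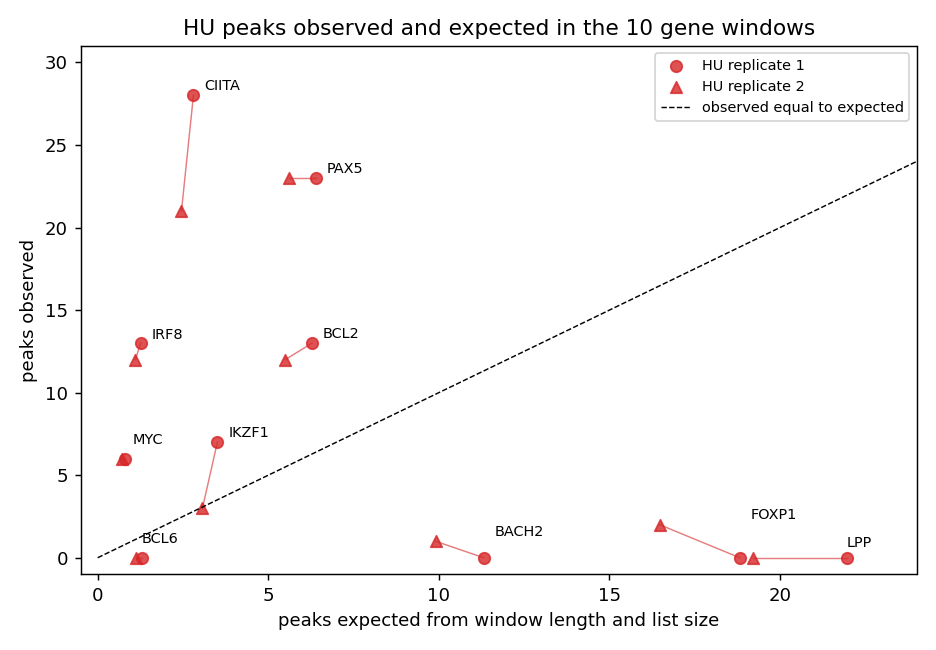
Observed against expected HU peaks in the 10 windows, with a circle and a triangle for replicates 1 and 2 of a gene joined by a line and the dashed line at equality. CIITA, with 28 and 21 peaks, lay far above the line, and LPP, FOXP1 and BACH2, with 0 to 2 peaks, far below it.

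The change of each gene between conditions was tested across genes in 2 ways. The first test was limma on log2(ratio + 1), over 4180 genes with at least 1 expected peak on average, which took in FOXP1, LPP, BACH2, IKZF1, PAX5 and BCL2 and left out the shorter windows of BCL6, CIITA, IRF8 and MYC. This test failed on simulated lists. For HU against untreated, with 200 of 4180 genes changed, it called 262 genes on average over 5 simulations, of which 81.8% had not been changed, and 97.4% of those wrong calls had no peak in either untreated list. For MMS against untreated, where no gene had been changed, it made 0 calls, as did the added fit described next, and the cause of the wrong calls was not tested. Its calls are given for completeness and nothing is drawn from them. They covered 2.46% of genes for APH, 8.18% for HU and 6.41% for MMS against untreated, 7.03% for HU against APH, 4.07% for MMS against APH and 5.65% for HU against MMS. The only member called was IKZF1 for MMS against untreated (log2 difference 1.95, SE 0.36, limma adjusted p = 0.0469), and both its untreated lists were at 0, the situation of the wrong calls.

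The second test was added after that failure. It fitted the peak numbers themselves with a quasi-Poisson model, with the expected number as offset. The spread was moderated by limma and held at 1 or more. With all 8 lists and the 10 kb extension, this spread was 1 for every member in every comparison. The member p-values there thus reflect counting error alone and not a member's own spread between replicates. The fit was chosen among 4 fits by the simulated lists and not by any member's result. For HU against untreated in the same simulations, 2.63% of its calls were unchanged genes. It recovered 26.2% of 8-fold and 3.4% of 4-fold changes there, so that most changes of these sizes would be missed. For drug against drug, the rate of wrong calls and the recovery of the added fit were not tested. The added fit called 0.287% of genes for APH, 1.46% for HU and 0.335% for MMS against untreated, and no member in any of these 3 comparisons. The smallest member p against untreated was that of FOXP1 after HU (quasi-Poisson fit moderated by limma, adjusted p = 0.0662), with pooled ratios of 0.0567 after HU and 1.40 without treatment. It was called with the expectation from the same chromosome (0.0388), without untreated replicate 1 (0.0198) and without HU replicate 2 (0.0251), and in no other setting tried. PAX5 after MMS, at 8.80 against 2.74, had an adjusted p of 0.356 by limma and 0.741 by the added fit.

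Between drugs, the added fit called 19.1% of genes for HU against APH, 0.191% for MMS against APH and 11.4% for HU against MMS. BACH2 was lower after HU than after APH, with pooled ratios of 0.0471 and 1.12 (quasi-Poisson fit moderated by limma, adjusted p = 0.00547). FOXP1 was lower after HU than after MMS, at 0.0567 and 1.31 (adjusted p = 5.86e-04 by the same limma-moderated fit). LPP was lower after HU than after MMS, at 0 and 0.482 (adjusted p = 0.0101 by the same limma-moderated fit). BACH2 was also lower after HU than after MMS, at 0.0471 and 0.935 (adjusted p = 0.0438 by the same limma-moderated fit). In this setting all 4 calls were lower after HU, as were 420 of the 475 genes called for HU against MMS and 534 of the 799 for HU against APH. The filter on expected peaks kept only the members with longer windows, so every possible call here was of a long gene. Each call was lost with an adjusted p above 0.05 when certain lists were left out. BACH2 against APH was lost without APH replicate 1 (0.128) or HU replicate 1 (0.0632), FOXP1 without MMS replicate 2 (0.197), LPP without HU replicate 1 (0.0559) or MMS replicate 1 (0.172), and BACH2 against MMS without HU replicate 1 (0.198) or either MMS replicate (0.119 and 0.448). Other settings added calls. CIITA was higher after HU than after APH with a 50 kb extension (9.16 against 3.45, adjusted p = 0.0318 by the limma-moderated fit) and with the expectation from the same chromosome (0.0142), and PAX5 was lower after HU than after MMS with no extension (0.0433). FOXP1, LPP and BCL6 were lower after HU than after APH with 50 kb (0.0475 each), and FOXP1 also without HU replicate 2 (0.0482). All 4 calls above were also lost when each list was limited to its strongest 4327 peaks. In that setting the fit called 0 of 4180 genes in either comparison, so the loss says nothing of these members in particular. All 4 were lost too when peaks below a fold enrichment of 3 were removed. There the fit called 18 genes for HU against APH and 6 for HU against MMS. FOXP1, LPP and BACH2 then had ratios of 0 after both HU and MMS, which left no difference to call.

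Along the genes, members and all protein-coding genes were compared by place. After HU the members held 17 and 14 peaks in the 10 kb after their ends, ratios of 5.87 and 5.52, against 2.67 and 2.72 over all genes. In the introns beyond the first 5 kb they held 49 and 46, ratios of 0.755 and 0.810, against 1.16 and 1.14 over all genes. After MMS the order was the other way there, with 20 and 18 peaks and ratios of 2.02 and 2.12 against 1.37 and 1.40. In the first 5 kb, where hypermutation is known to fall, they held 3 and 4 HU peaks, ratios of 2.07 and 3.15 against 2.92 and 3.07, and no more than 2 in any other list. In the 10 kb before the start the HU ratios were 3.11 and 2.76, against 2.92 and 3.03. The untreated ratios there were 11.5 and 6.37, against 2.97 and 2.78, from 2 and 1 peaks, and the MMS ratios 11.3 and 5.27, against 2.48 and 2.10, from 5 and 2 peaks. These ratios sum windows of very different HU density, and the long introns of FOXP1, LPP and BACH2 make up most of the intron sequence. The difference from all genes was not tested.

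**Figure D3:**
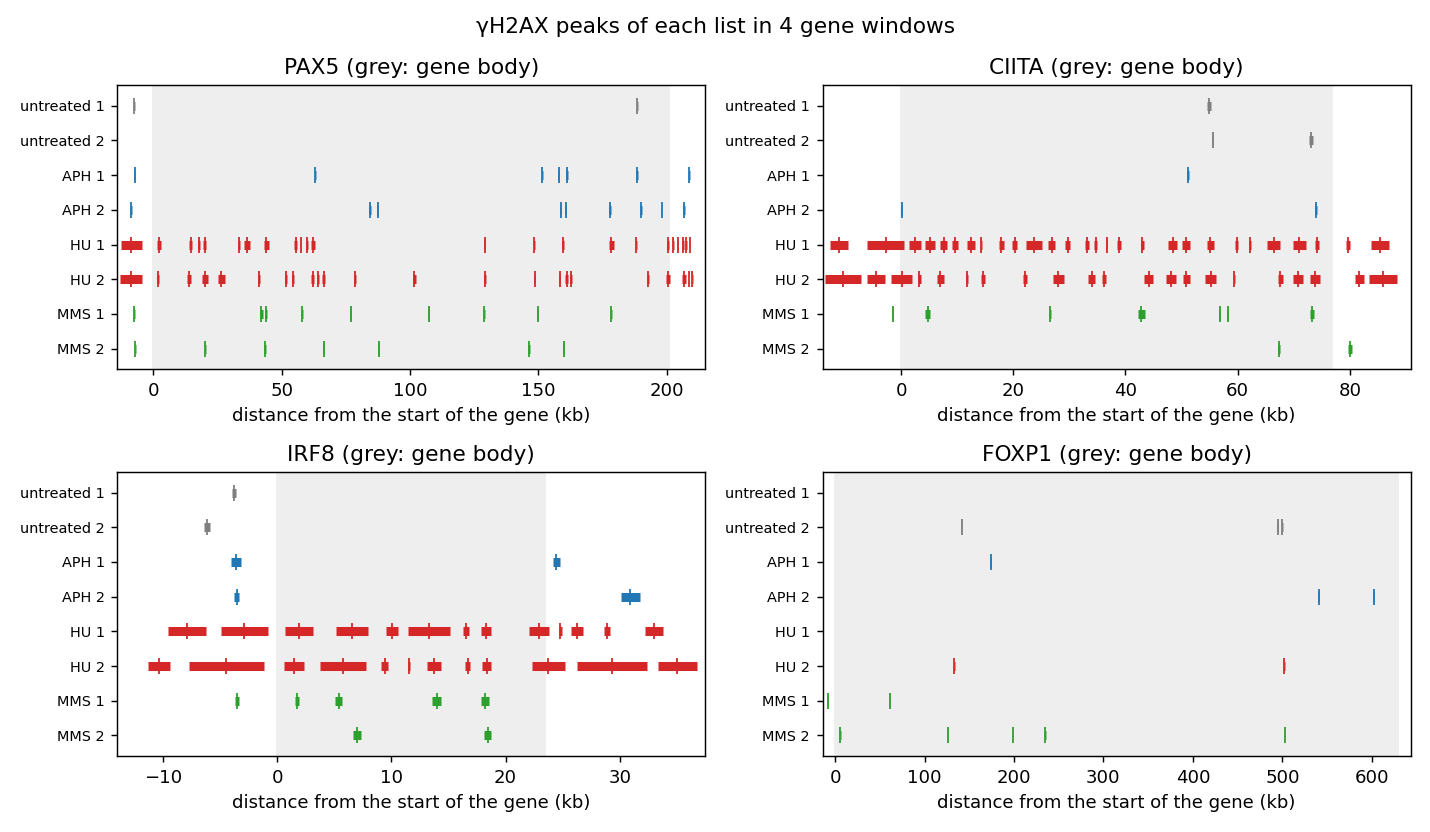
Peaks of each of the 8 lists (rows) by distance from the start of the gene in kb for PAX5, CIITA, IRF8 and FOXP1, with bars as wide as the peaks, ticks at their centres and the gene body in grey. The PAX5 site 7.35 kb before the start returned in 7 lists, the IRF8 body was covered by HU peaks at both ends, and FOXP1 had peaks that were in 1 list each.

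The strongest peaks that both HU replicates shared, ranked by fold enrichment averaged over the replicates, had fold enrichments of 3.16 at PAX5, 3.16 at IRF8, 3.15 at CIITA, 3.06 at MYC, 2.75 at BCL2 and 2.63 at IKZF1. The PAX5 peak, 8.60 kb before the start, spanned 37038623 to 37047090 over both replicates. Of the HU peaks in the 10 windows, 58.9% and 67.5% overlapped the other replicate, against 43.3% and 51.0% of all HU peaks. Without treatment none of the 6 and 8 peaks in the windows did, against 16.0% and 19.4% of all peaks. HU peaks in the windows had median widths of 939 and 944.5 bp, against 764 and 743 bp over each whole list. A q-value of 0.05 or less was reached by 85.6% and 63.8% of the HU peaks in the windows and by none of those in the other 6 lists. This followed the whole lists, where 78.4% and 60.3% of all HU peaks and 0.164% to 1.31% of the peaks of the other lists reached it. The members' values in untreated, APH and MMS cells thus rest on peaks that passed the p-value limit alone.

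GC content ran with HU density in most members but not in all. The windows of IRF8, PAX5 and CIITA held 49.7%, 49.4% and 49.1% GC and those of FOXP1, BACH2 and LPP 41.1%, 40.7% and 39.2%. MYC, also dense, held 46.9%, while dense BCL2 held 42.7% and BCL6, without HU peaks, 45.4%. Over the genes with windows of 100 kb or more, split into 5 equal groups by GC content, the median HU ratio was 0 in the lowest group and 1.43 and 1.37 in the 2 highest. Set beside genes of like length and GC content (within 2 points), a comparison added after the data were seen, IRF8 exceeded 96.6% of 2476 genes after HU and CIITA 95.7% of 1075, and PAX5 exceeded 75.9% of 294. FOXP1 exceeded 39.4% of 246 such genes and BACH2 28.5% of 600. The part of GC content in these values was not tested.

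**Figure D4:**
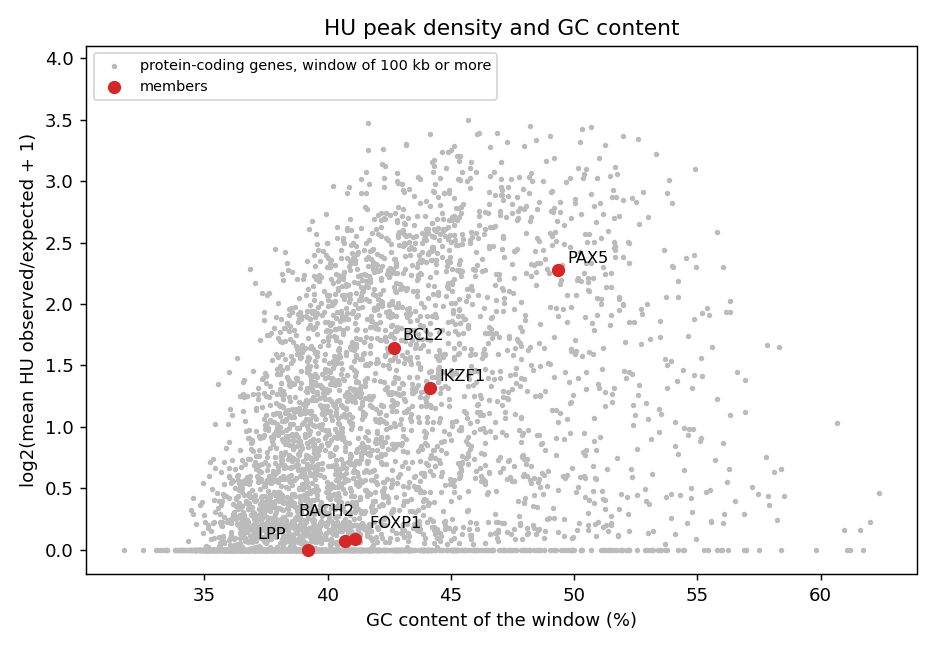
Mean HU ratio of observed to expected peaks, as log2(ratio + 1), against the GC content in percent of the window, for autosomal protein-coding genes with windows of 100 kb or more (grey) and the 6 members of that size (red). PAX5 lay among dense genes of high GC content, and LPP, BACH2 and FOXP1 near 0 among many genes of similar GC content.

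Further genes of B-cell biology were taken from 3 lists. Of their windows, 14 of 15 in the hypermutation list, 6 of 16 in the transcription factor list and 10 of 16 in the translocation list were under 100 kb, and the shares of all genes that were dense are given for windows under 100 kb and for longer ones. Of 15 genes known for off-target hypermutation, 13 were dense after HU, where 43.4% and 20.2% of all genes were, with summed ratios of 4.78 and 5.17, and the highest was SOCS1, an inhibitor of cytokine signalling, with 6 and 6 peaks (ratio 10.2 ± 0.958). Of 16 B-lymphocyte transcription factors 9 were dense after HU, led by IRF4, a factor of plasma cell differentiation, with 11 and 9 peaks (9.25 ± 0.440). Of 16 other lymphoma translocation genes 10 were dense after HU, led by NFKB2, an NF-κB subunit, with 5 and 6 peaks (7.197 ± 1.59). After APH the counts were 3 of 16 transcription factors, 0 of 15 hypermutation genes and 2 of 16 translocation genes, against 4.98% and 11.5% of all genes, with IRF4 (13.3 ± 2.17) and DUSP22 (10.1 ± 3.19) the highest of their lists. After MMS they were 3 of 16, 1 of 15 and 2 of 16, against 2.97% and 10.8%, with BCL11A (5.01 ± 1.93), ST6GAL1 (3.69 ± 1.42) and DUSP22 (10.6 ± 1.01) the highest. Without treatment they were 1 of 16, 0 of 15 and 1 of 16, against 0.787% and 1.79%.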

How the data were processed

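γH2AX ChIP-seq peak lists of 8 libraries were analysed, without the input library. Reads were aligned to GRCh38 with Bowtie2 and filtered with SAMtools by the authors, who ran MACS2 in broad mode for every replicate separately. The deposited lists give each peak a fold enrichment (a ratio), a −log10 p-value, a −log10 q-value and a score, and the score was not used. Replicates were independent treatments. Depth is unknown, so the precision of the ratios rests on the spread of 2 replicates. The members and lists were chosen with earlier results of these data known.

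Peaks were counted by overlap of at least 1 bp (Python 3.11.15), and all 80 member counts matched bedtools 2.31.1. Conditions were compared with limma 3.58.1 (R 4.3.3) on log2(ratio + 1), with Benjamini-Hochberg adjustment over 4180 genes at 0.05. On simulated data this test mostly called unchanged genes where the untreated lists were empty. A quasi-Poisson fit of peak numbers was therefore added after the data were seen. Of the 4 fits tried on simulated lists, limma and limma with at least 3 expected peaks did not keep wrong calls rare for HU against untreated. Quasi-Poisson with and without a lower bound of 1 on the spread did so, with equal results. Replicates varied about as much as counting error (mean Pearson dispersion 0.786 to 1.08 per condition), so its spread was held at 1 or more. For the members it was 1, so their p-values from this fit rest on counting error. All 10 members are named, with the top gene of each further list per treatment. Windows, expectations, peak strength, merging, filters and left-out replicates were varied.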

Additional observations from a re-analysis of the deposited data

How the results depend on the processing

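For the 10 genes together, the mean ratio in untreated cells (1.67) moved to 2.82 with a 50 kb extension, 1.19 with the stronger 50% of peaks, 2.93 at a fold enrichment of at least 3, 0 with peaks found in both replicates and 0.944 against 1 Mb on each side. Under APH (1.34) it moved to 2.09 at a fold enrichment of at least 3. Under HU (1.22) it was 0.918 with no extension, 2.03 with 50 kb, 1.43 with the same chromosome, 1.36 with the stronger 50%, 1.28 at a fold enrichment of at least 3, 1.36 with equal numbers of peaks, 1.18 with merged peaks, 1.15 with the peak centre, 1.64 with peaks in both replicates and 0.756 against 1 Mb on each side, so its side of 1 depended on the window and surroundings. Under MMS (2.54) it was 2.25 with no extension, 2.91 with 50 kb, 4.41 with peaks in both replicates, 1.59 against 1 Mb on each side and reversed to 0.864 at a fold enrichment of at least 3. Without 1 replicate it ranged from 1.35 to 1.98 in untreated cells, 0.912 to 1.76 under APH, 1.21 to 1.23 under HU and 2.36 to 2.73 under MMS. Single genes reversed for PAX5 under HU against 1 Mb on each side (0.873), for PAX5, IRF8 under MMS and IRF8 under APH at a fold enrichment of at least 3 (0 each), for BCL2 under HU at that limit (0.521), for CIITA under MMS with peaks in both replicates (0), for IRF8 under APH with no extension (0) and for the limma difference of IKZF1 with 50 kb (-0.0137).

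The limma counts are given in the order APH, HU and MMS against untreated, HU against APH, MMS against APH and HU against MMS, and were 103, 342, 268, 294, 170 and 236. They were 522, 1739, 1061, 827, 454 and 708 with 50 kb, 0, 0, 0, 58, 52 and 102 with equal numbers of peaks, 636, 2482, 887, 1970, 897 and 1919 with at least 0.2 expected peaks, and 16, 9, 43, 32, 22 and 37 with at least 3. The quasi-Poisson fit gave 12, 61, 14, 799, 8 and 475. With limma, a fold enrichment of at least 3 gave 0 for APH and MMS against untreated, 0 for MMS against APH and 399 for HU against MMS. With no extension APH against untreated gave 61, and the stronger 50% gave 40 for APH and 158 for MMS. No trend gave 187 for APH against untreated and 270 for MMS against APH, and a constant of 2 gave 178 for MMS. Without 1 replicate, where the lone list is assumed to vary like the others, they ranged from 0 to 312, 158 to 664, 31 to 684, 272 to 671, 62 to 555 and 166 to 576. Replicate numbers shared a number only, with correlations of deviations from -0.0298 to 0.0274, and the replicate block gave 26, 203, 14, 195, 48 and 152. Beyond the lists named in the report, the quasi-Poisson call of BACH2 was lost with 50 kb (adjusted p = 0.0555 against APH and 0.208 against MMS) and, against MMS, with the same chromosome (0.0501), merged peaks (0.0513) and the stronger 50% (1). The cause of these changes was not tested.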
